A study of Thermothelomyces thermophilus ATCC 42464 with 4 samples.

Results

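A CG site is its own mirror image, so that each CG on one DNA strand faces a CG on the other and the cytosines of such a dyad can be methylated together or one without the other. The sites described here were CG sites of the thermophilic fungus Myceliophthora thermophila that were listed as methylated on one strand only in the wild-type (WT) strain. A one-strand site was a CG cytosine present in the lists of methylated cytosines of both WT libraries, with the opposite-strand cytosine of its dyad (its partner) absent from both. There were 60825 such sites among 183436 CG sites in both WT lists (33.2%). A further 85194 sites (46.4%) had the partner in both WT lists and are called both-strand sites, and 37417 sites (20.4%) had it in exactly 1. Across the 4 libraries 2693648 cytosines were listed at least once, of which 372619 were CG sites.

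The compared strains were ΔlaeA and WT, both sampled as mycelium after 24 h on glucose, with 2 whole-genome bisulfite libraries each. LaeA is a putative methyltransferase and a global regulator of filamentous fungi, and ΔlaeA is described as carrying a marker cassette in place of its coding region, although the genotype label of these libraries says knockdown. The ΔlaeA lists held cytosines with reads inside the annotated laeA gene (values with the genes), so that loss of the whole gene was not shown in these libraries. Nothing in the descriptions says whether the 2 libraries of a strain came from separate cultures or whether ΔlaeA was more than 1 transformant. Errors and p-values here thus measure at most the spread between libraries, which may be technical. Fisher's exact test, run as an alternative on reads pooled within strain, measures counting error only. Bisulfite turns unmethylated cytosine into uracil, and the methylation level of a site is the share of its reads that still show C. The lists hold called sites alone, with a level of at least 5% and at least 5 reads, so that a cytosine missing from a list was unmethylated, methylated too weakly or covered too thinly, and these cases cannot be told apart. The libraries held 2020637 (replicate 1) and 1899567 (replicate 2) listed cytosines in ΔlaeA and 2020698 and 2044100 in WT, at a median depth of 56 and 47 reads in ΔlaeA and 55 and 59 reads in WT. ΔlaeA replicate 2 was the shallowest library with the shortest list, which touches every share listed below.

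In plants and animals, CG methylation is copied to the new strand after replication by a maintenance methyltransferase that recognises dyads methylated on one strand, and most methylated CG sites there carry the mark on both. In the related fungus Neurospora crassa, a single enzyme, DIM-2, methylates cytosines in every sequence context, mostly in AT-rich relics of repeats, guided by methylation of histone H3 at lysine 9. LaeA itself is classed by its sequence with methyltransferases that use S-adenosylmethionine.

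The one-strand sites were weakly methylated. Their pooled level (methylated reads over all reads) was 11.5% in WT replicate 1 and 11.4% in WT replicate 2, and the medians over sites were 10% in each, with 5th to 95th percentiles of 5.48% to 23.8% in replicate 1 and 5.45% to 23.6% in replicate 2. Of the one-strand sites, 1.72% and 1.75% reached a level of 30% in the WT libraries, against 9.30% and 9.45% of both-strand sites, whose pooled level was 15.6% in each. Depth was alike, with a median of 59 and 63 reads at one-strand sites and 57 and 60 at both-strand sites. The Wilson 95% interval on the first of these pooled levels, 11.48% to 11.55%, covers counting error only. These WT values describe what the choice of sites picked out and were not tested.

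The share of CG sites that were one-strand was smaller at higher levels of the listed cytosine. In the ΔlaeA lists, with the same rule applied to the 2 ΔlaeA libraries, 48.2% of sites at 5 to 7.5% methylation were one-strand, 35.3% at 10 to 15%, 19.4% at 20 to 30% and 2.25% at 50% or more. In the WT lists these shares were 46.0%, 34.0%, 19.0% and 1.94%. At 50% or more, 25 of 1291 CG sites in both WT lists were one-strand, so that a strongly methylated cytosine with an unlisted partner was rare in either strain.

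**Figure D1:**
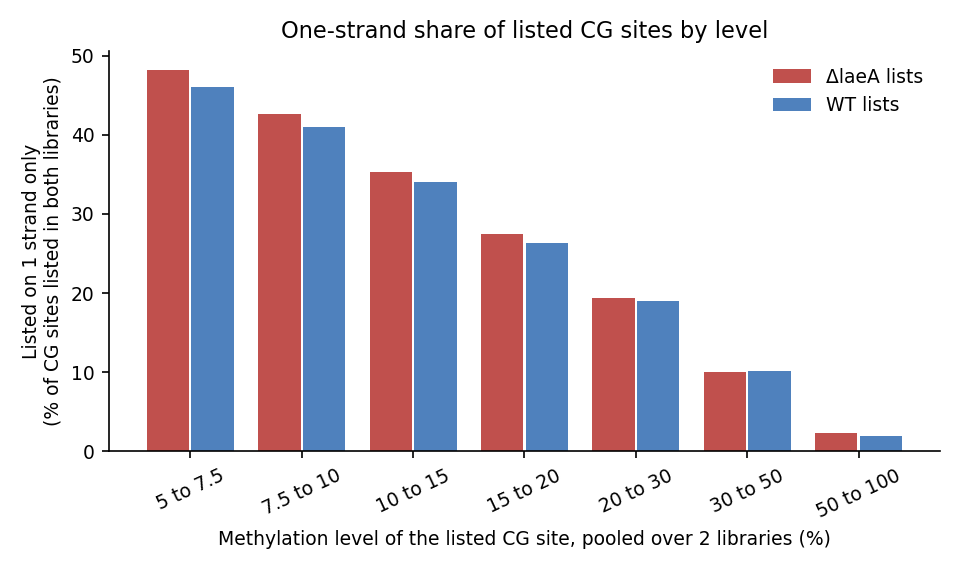
Share of CG sites listed on 1 strand only (vertical axis, % of CG sites listed in both libraries of a strain) by the pooled level of the listed site (horizontal axis, %), for the ΔlaeA lists (red) and the WT lists (blue). In each strain the bars step down, to 2.25% in ΔlaeA and 1.94% in WT at levels of 50% or more.

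How few methylated reads the absent partner must have shown can be read from the lists. At depths of 30 to 60 reads the lowest number of methylated reads listed was 3 in every library, and at 80 reads it was 4. For 60529 one-strand sites (99.5%), other cytosines were listed on the opposite strand within 50 bp in both WT libraries, with a median depth of 58 and 63 reads, and this depth was at least 20 reads in both for 99.8% of them. If the partner was covered like these neighbours, it could have shown at most 4.24% methylated reads without being listed at the median site. The 5th to 95th percentiles over sites were 3.60% to 5.19%. This share limits the reads seen and not the methylation of the partner, since a more methylated cytosine can show few methylated reads by sampling. The listed cytosine had at least 2 times that share at 40855 sites (67.5%), at least 3 times at 18815 (31.1%) and at least 5 times at 3949 (6.52%). The rule asked for a listed cytosine and an unlisted partner, so that it favoured high ratios in advance. In WT dyads listed on both strands, the higher strand had at least 2 times the level of the lower in 23.3% and at least 3 times in 6.05%. That ratio is of 2 listed levels, so that the shares are not like for like.

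Just outside the rule stood the sites with a partner in exactly 1 WT list. The partner level where listed was 8.03% at the 17992 sites with the partner in WT replicate 1 only and 8.12% at the 19425 sites with it in WT replicate 2 only, and the listed cytosines of these sites were at 12.7% in WT replicate 1 and 12.6% in WT replicate 2.

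The surroundings of one-strand sites were methylated on both strands. Within 50 bp the strand of the site held a mean of 10.5 listed cytosines and the opposite strand 10.01 in WT replicate 1, with pooled levels of 14.2% and 14.1% and mean depths of 57.3 and 56.3 reads. WT replicate 2 gave 10.6 and 10.1 listed cytosines, at 14.2% and 14.1%. The neighbours of both-strand sites were higher, at 17.0% on either strand in both WT libraries. One-strand sites were also sparser in the most densely listed stretches: they made up 55.6% of CG sites with 50 to 99 listed cytosines within 500 bp, 34.9% of those with at least 150 and under 200, and 15.5% of those with 250 or more. They did not lie in stretches of their own, since 8890 (88.8%) of the 10012 1-kb windows with a one-strand site also held a both-strand site. The median such window held 6 one-strand sites and the richest held 22.

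The plus strand carried 30818 one-strand sites and the minus strand 30007. Neighbouring one-strand sites, at a median distance of 97 bp, lay on the same strand in 51.4% of pairs, and at distances of 51 to 100 bp in 50.6%. The longest run on a single strand was 20 minus-strand sites on chromosome 3, from 2735359 to 2738410. At the shortest distances the strands were not mixed evenly. Where the CG dinucleotides of neighbouring one-strand sites were 2 bp apart (start to start), 50 of 449 pairs (11.1%) shared a strand, whereas at distances of 3 to 30 bp the share went up and down with the distance, between 42.5% (17 bp) and 67.3% (25 bp).

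A distance of 2 bp fixes the sequence as CGCG, which reads the same on both strands and holds 4 cytosines. The outer cytosines are the first C of CGCG as read 5′ to 3′ on each strand, and the inner cytosines are the second. In 397 of the 449 pairs (88.4%) both one-strand sites were the outer cytosines, and in 2 pairs (0.445%) both were the inner ones. With the rule applied to the ΔlaeA lists, 328 of 363 such pairs were outer and 0 inner. Taking every one-strand site that had a listed CG 2 bp away, 2321 of 2446 (94.9%) were outer cytosines.

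The same held for all CGCG motifs with a listed CG cytosine in each dinucleotide, 3496 in number, whether or not they held a one-strand site. The outer cytosines were listed at 58.6% of positions in ΔlaeA replicate 1 and 55.1% in ΔlaeA replicate 2, against 60.9% in WT replicate 1 and 62.7% in WT replicate 2. The inner cytosines were listed at 14.9% and 13.9% of positions in ΔlaeA and at 16.5% in each WT library. Where both cytosines of a dyad were listed, the outer one had the higher level in 69.9% and 69.6% of dyads in ΔlaeA and in 69.0% and 71.6% in WT. Median depth at listed outer and inner cytosines was 57 and 55 reads in ΔlaeA replicate 1, and 57 and 55 reads in WT replicate 1. In every library the outer cytosines were thus listed more than 3 times as often as the inner ones of the same motif, and the depth of the unlisted ones is not known.

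At 3 bp, where 1 base lies between the dinucleotides, outer cytosines were listed at 50.2% and 47.0% of positions in ΔlaeA and at 51.8% and 53.1% in WT, and inner cytosines at 30.1% and 29.4% in ΔlaeA and 32.1% and 31.9% in WT. From 4 bp the difference was smaller and its direction changed with the distance. At 8 bp the inner cytosines were listed more often, at 54.3% and 50.9% in ΔlaeA and 55.2% and 56.7% in WT, against 47.9% and 45.1% of outer ones in ΔlaeA and 49.1% and 50.2% in WT. At 10 bp the outer ones were ahead, at 55.7% and 52.8% in ΔlaeA and 56.9% and 58.3% in WT, against 48.6% and 45.9% of inner ones in ΔlaeA and 49.4% and 51.02% in WT. At 8 and 10 bp, pairs of one-strand sites leaned the same way. There were 92 outer and 175 inner among 475 pairs at 8 bp and 230 outer and 76 inner among 653 at 10 bp. Outer pairs also outnumbered inner ones at 4 bp (78 and 56), 6 bp (113 and 53), 9 bp (163 and 123), 11 bp (123 and 71) and 12 bp (120 and 58). Inner pairs outnumbered outer ones at 5 bp (74 outer and 78 inner) and 7 bp (77 outer and 113 inner). At 4 and 9 bp the inner cytosines were listed slightly more often in every library, so that there the pairs leaned the other way. Motifs in copies of a repeat share their sequence and are not separate observations, and with no genome sequence used here copies could not be told apart. These pair counts are a description with no test.

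**Figure D2:**
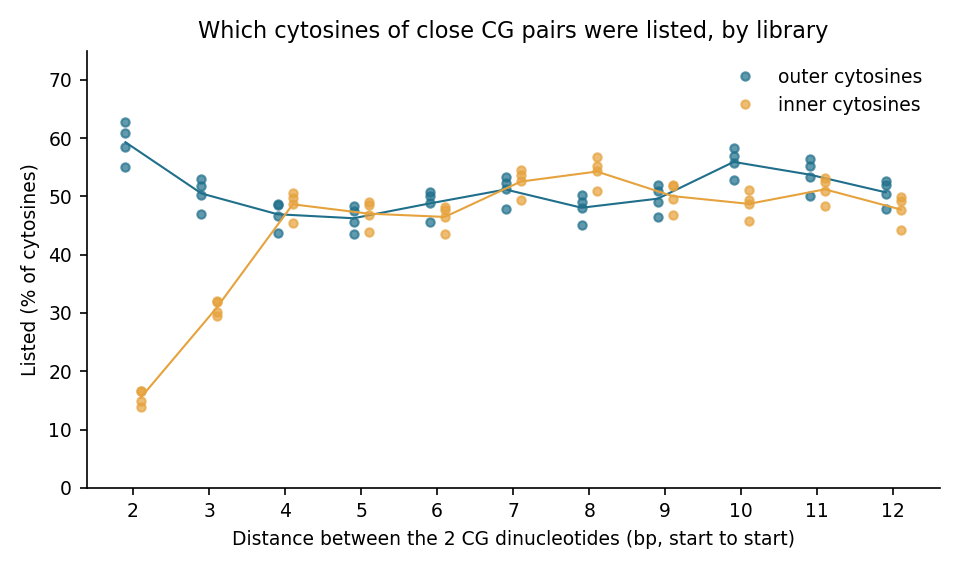
Share of outer and inner cytosines listed (vertical axis, %) in pairs of CG dinucleotides by the distance between their starts (horizontal axis, bp). Each point is 1 of the 4 libraries and the lines join the means. At 2 bp the outer cytosines sit between 55.1% and 62.7% and the inner ones between 13.9% and 16.5%, and from 4 bp the gap is smaller, with the inner points above at 8 bp and the outer points above at 10 bp.

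One-strand sites lay far from genes. By RefSeq coordinates of assembly ASM22609v1, 1814 (2.98%) were inside an annotated gene, although genes covered 46.6% of the chromosomes, 2803 (4.61%) were outside genes but within 1000 bp of one, and 56208 (92.4%) were farther away, in 30.97% of the chromosome length. Both-strand sites split into 3.50%, 6.35% and 90.1% over the same places. Every chromosome held one-strand sites, from 6008 on chromosome 2 to 14133 on chromosome 1, and they made up 29.6% of listed CG sites on chromosome 1, the longest, and 37.6% on chromosome 7.

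Of 9292 annotated genes, 217 held at least 1 one-strand site, 57 held at least 5 and 34 held at least 10. The gene table used here gives no product names, so that the 5 richest genes are given by locus tag. MYCTH_2062106 (chromosome 3, 3824348 to 3842015) held 157, of which 109 were listed in all 4 libraries, at pooled levels of 14.1% and 13.1% in ΔlaeA and 14.8% and 13.1% in WT. MYCTH_117478 (chromosome 7, 1398996 to 1418472) held 105, and its 63 sites in all 4 lists were at 11.8% and 12.03% in ΔlaeA and 12.7% and 12.6% in WT. MYCTH_2123212 (chromosome 1, 5038711 to 5048680) held 83, with 14.7% and 15.6% in ΔlaeA and 17.4% and 17.7% in WT over 51 sites. In the first of these genes the strains overlapped, and in the others both ΔlaeA libraries were below both WT libraries.

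MYCTH_2130249 (chromosome 6, 3326750 to 3338880) held 77 one-strand sites, and 42 of them were at 11.5% and 11.4% in ΔlaeA and 13.1% and 13.8% in WT. MYCTH_62778 (chromosome 1, 2978486 to 2987485) held 63, with 10.1% and 11.04% in ΔlaeA and 11.4% and 11.99% in WT over 29 sites. Both ΔlaeA libraries were again below both WT libraries in each, and single genes were not tested. Lower levels in ΔlaeA were general, with 75.3% of 50-kb windows of one-strand sites lower (windows described below). Being lower thus does not set these genes apart, and no share over all genes stands beside them.

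None of 11 genes chosen from those the study worked on held a one-strand site, either inside the gene or within 1000 bp, where 620 of all 9292 genes (6.67%) did, so that 0 of 11 does not set them apart. These were laeA itself, laeB, the carbon catabolite repressor cre-1, the growth regulatory factors grf-1, grf-2 and grf-3, the gluconeogenesis genes pck and fbp (phosphoenolpyruvate carboxykinase and fructose-bisphosphatase), and clr-1, clr-2 and xlnR, regulators of genes for plant cell wall degradation. With the rule applied to the ΔlaeA lists, 2 sites appeared inside laeA (MYCTH_2294559, chromosome 1, 1373921 to 1375913). They were minus-strand cytosines at 1374530, with 3 of 24 and 6 of 40 reads methylated in the ΔlaeA libraries, and at 1374553, with 3 of 10 and 2 of 11 reads. The laeA gene held 62 and 25 listed cytosines in ΔlaeA and 2 and 1 in WT. A stretch of 592 bp, from 1374674 to 1375265, held none in ΔlaeA and 1 in WT, in replicate 2. Before it, laeA held 54 and 25 listed cytosines in ΔlaeA, at a median of 11 reads in each library. Their depth reached 161 and 123 reads, but was 5 to 8 and 5 to 6 reads over the last 50 bp. After it, there were 8 in ΔlaeA replicate 1, at 30 to 44 reads, and 0 in replicate 2. Reads of both ΔlaeA libraries thus lay inside the annotated gene, so that loss of all of it was not shown, and since unlisted cytosines show no depth, whether the stretch was deleted could not be checked.

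To see whether these sites differed in the strain labelled ΔlaeA, each was looked up in the ΔlaeA lists. The cytosine itself was listed again at 46660 sites (76.7%) in ΔlaeA replicate 1 and 43943 sites (72.2%) in ΔlaeA replicate 2, a mean of 74.5% ± 3.16 (SD, n = 2). The partner, absent from WT by the rule, was listed at 8550 sites (14.1%) and 7767 sites (12.8%), a mean of 13.4% ± 0.910 (SD, n = 2). Most sites were still one-strand on the same strand, 65.3% in replicate 1 and 62.4% in replicate 2. Both strands were listed at 11.4% and 9.84%, the opposite strand alone at 2.62% and 2.93%, and neither strand at 20.7% and 24.8%.

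Sites chosen in one strain are less often listed in any other library, so the same was done in the other direction. The rule applied to the ΔlaeA lists gave 56863 one-strand sites (34.3% of the 165926 CG sites in both ΔlaeA lists). Of these, the cytosine itself was listed at 80.3% in WT replicate 1 and 81.5% in WT replicate 2, and the partner at 17.3% and 17.4%. Both shares were higher than those of the WT-chosen sites in ΔlaeA, and list length moved with them, at 240694 and 225018 listed CG sites in ΔlaeA and 247371 and 250784 in WT. The part of list length in this was not tested.

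With the rule read from a single library, the spread within a strain could be set beside that between strains. Of the one-strand sites of ΔlaeA replicate 1, 48.3% were one-strand on the same strand in ΔlaeA replicate 2, and of those of ΔlaeA replicate 2, 49.2% were so in ΔlaeA replicate 1. Between the WT libraries the share was 50.7% from replicate 1 to replicate 2 and 50.8% in reverse. Across strains it ranged over 49.2% to 50.8% for ΔlaeA sites followed in WT and 47.4% to 49.9% for WT sites followed in ΔlaeA. Sites of a WT library thus stayed one-strand less often in either ΔlaeA library than in the other WT library, without overlap. Sites of a ΔlaeA library stayed so at least as often in WT as in the other ΔlaeA library. The cytosine itself was listed again at 67.0% and 65.8% of sites between WT libraries, and at 59.97% to 64.2% of WT sites in ΔlaeA. Between ΔlaeA libraries it was listed again at 61.1% and 66.7%, and at 66.6% to 68.9% of ΔlaeA sites in WT. The partner was listed at 21.9% and 20.7% of sites between WT libraries, and at 17.7% to 20.3% of WT sites in ΔlaeA. Between ΔlaeA libraries it was listed at 18.7% and 23.5%, and at 21.8% to 25.2% of ΔlaeA sites in WT. Partners of WT sites thus appeared no more often in ΔlaeA than in the other WT library. The ΔlaeA lists were the shorter ones, and the part of list length in this was not tested.

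**Figure D3:**
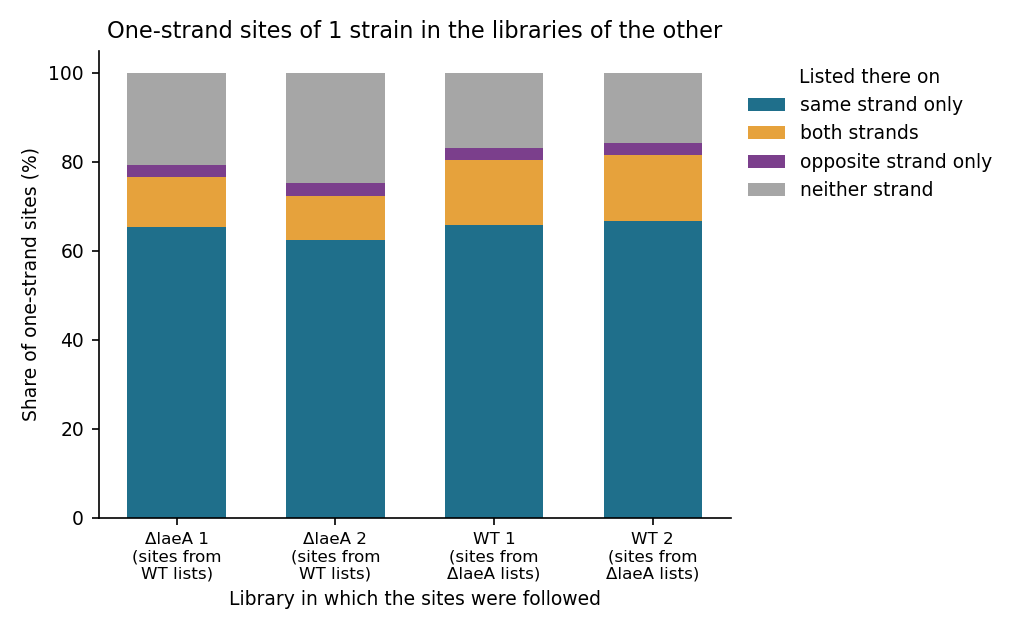
Share of one-strand sites (vertical axis, %) that were listed on the same strand only, on both strands, on the opposite strand only or on neither, in each library of the other strain. The left pair of bars follows the 60825 sites of the WT lists in ΔlaeA and the right pair the 56863 sites of the ΔlaeA lists in WT. The same-strand share sits between 62.4% and 66.8% in all 4 bars.

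Over both ΔlaeA libraries together, 28044 sites (46.1%) were one-strand on the same strand in each, which is 49.3% of the ΔlaeA-chosen sites. Both strands were listed in each ΔlaeA library at 1944 sites (3.20%), and the opposite strand alone in each at 208 (0.342%), so that a switch of strand seen in both libraries was rare. At 6044 sites (9.94%) neither strand was listed in either ΔlaeA library. Sites that were lost had been weak: the 7292 sites with the cytosine in neither ΔlaeA list had a pooled WT level of 7.86%, against 13.2% at the 37070 sites with it in both. By WT level, the cytosine was listed again at 53.0% and 48.8% of sites of 5 to 7.5% in the ΔlaeA libraries, at 85.2% and 80.1% of sites of 10 to 15%, and at 98.6% and 97.1% of sites of 20 to 30%.

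Partners that appeared in ΔlaeA were weak as well. Their pooled level was 7.35% in ΔlaeA replicate 1 and 7.63% in replicate 2, at median depths of 58 and 51 reads, with medians of 6.85% and 7.14%. Where both strands were listed, the cytosine chosen in WT stood at 13.04% and 13.11% and its partner at 7.39% and 7.71%, and the partner was the higher of the dyad at 18.8% and 20.3% of sites. With stronger cytosines the partner was listed more often, at 11.4% and 10.8% of sites with a WT level of 5 to 7.5% and at 23.8% and 20.6% of sites of 30 to 50%.

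The strongest partners seen in both ΔlaeA libraries, at 20 or more reads in each, were chosen for their level, and 1 of the 5 lay inside a gene. At chromosome 1, position 503352, the partner had 12 of 46 reads methylated in ΔlaeA replicate 1 (26.1%) and 10 of 37 in replicate 2 (27.0%), and its one-strand cytosine at 503353 had 24.6% and 20.5% in ΔlaeA and 21.1% and 23.2% in WT. At chromosome 2, position 1086139, inside gene MYCTH_2124981, the partner had 10% and 46.2%, on 40 and 26 reads, and at chromosome 4, position 3329993, it had 17.6% and 29.0%, on 34 and 31 reads. Only the first of these had like values in its 2 libraries. The other named partners were at chromosome 3, position 275331 (17.1% and 30.8%), and chromosome 6, position 2519663 (29.4% and 12%).

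The strongest cytosines with the partner absent from all 4 lists were chosen by their ΔlaeA level at 20 or more reads, so that a high ΔlaeA value is a matter of choice. The minus-strand site at chromosome 2, position 4549036, had 18 of 30 and 23 of 29 reads methylated in ΔlaeA (60% and 79.3%) and 15 of 28 and 12 of 22 in WT (53.6% and 54.5%). The minus-strand site at chromosome 2, position 207620, had 59.6% and 61.4% in ΔlaeA, on 57 and 44 reads, and 41.9% and 44.6% in WT, on 62 and 65 reads. The plus-strand site at chromosome 4, position 4388331, which lies 869 bp from gene MYCTH_2111617, had 54.0% and 54.8% in ΔlaeA and 66.7% and 51.1% in WT. The strains did not overlap at these sites of chromosome 2 and overlapped at the site of chromosome 4.

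The remaining named sites were plus-strand chromosome 1, position 2099356, with 54.1% and 48.3% in ΔlaeA and 67.9% and 66.7% in WT, and minus-strand chromosome 2, position 2604994, with 59.5% and 41.4% in ΔlaeA and 42.4% and 24.2% in WT. Both ΔlaeA libraries were below both WT libraries at the site of chromosome 1, and the strains overlapped at the other. None of these sites lay in an unmethylated or uncovered stretch of the opposite strand. Around position 4388331 of chromosome 4, the opposite strand held 14 and 13 listed cytosines within 50 bp in ΔlaeA, at 41.9% and 39.3%, and 13 and 14 in WT, at 39.1% and 45.6%. Around position 4549036 of chromosome 2 it held 20 and 19 in ΔlaeA, at 32.8% and 24.2%, and 23 and 22 in WT, at 25.6% and 29.6%, with mean depths between 16.0 and 23.3 reads. In WT, 810 one-strand sites had a level of at least 30%, of which 806 were listed in both ΔlaeA libraries and 519 had the partner absent from all 4 lists.

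The level itself was compared at the 37070 one-strand sites (60.9%) listed in all 4 libraries. Their pooled level was 12.8% in ΔlaeA replicate 1 and 12.9% in replicate 2, against 13.2% in each WT library. The means were 12.8% ± 0.0505 in ΔlaeA and 13.2% ± 0.0362 in WT (SD, n = 2 each), a difference of -0.372 percentage points. Both ΔlaeA libraries were below both WT libraries, and the exact two-sided permutation p was 0.333, the smallest that 2 against 2 libraries allow, so that no difference of this kind could pass 0.05. The same direction was seen on the plus strand (-0.373) and the minus strand (-0.372), and on each of the 7 chromosomes, with differences from -0.145 on chromosome 1 to -0.626 on chromosome 6.

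Both-strand sites listed in all 4 libraries were at 16.9% ± 0.206 in ΔlaeA and 17.4% ± 0.0405 in WT, a difference of -0.520 percentage points (SD, n = 2 each; exact permutation p = 0.333). The gap between the classes, one-strand minus both-strand, differed between the strains by 0.147 percentage points (exact permutation p = 0.667), within the spread between libraries. The lower level in ΔlaeA was thus not shown to differ between one-strand and both-strand sites. The sites chosen by the ΔlaeA lists gave -0.426, and the 28044 sites one-strand in both strains -0.378.

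**Figure D4:**
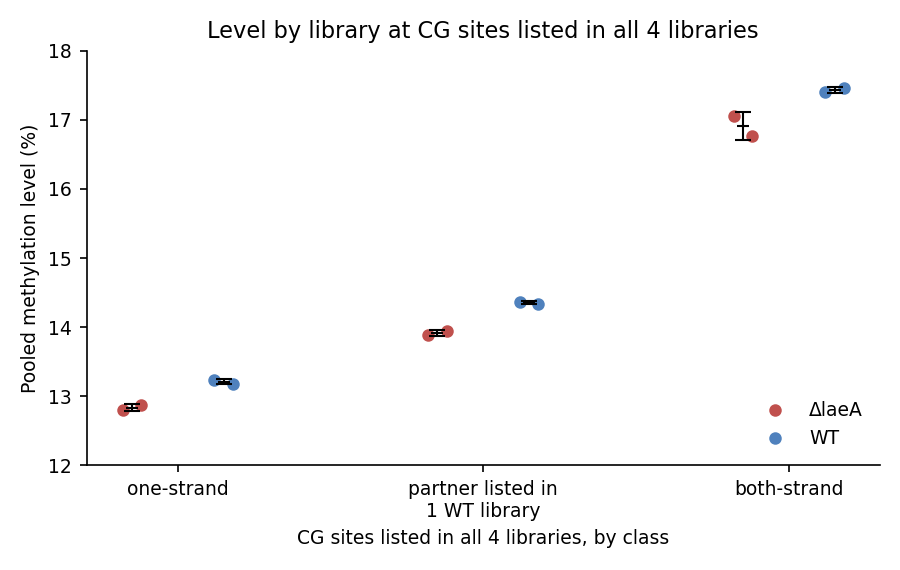
Pooled methylation level (vertical axis, %, shown from 12 to 18) of CG sites listed in all 4 libraries, by class, in ΔlaeA (red) and WT (blue). Points are libraries, dashes are means and error bars are SD (n = 2). In each class both ΔlaeA points lie below both WT points, and one-strand sites are lowest, at 12.8% in ΔlaeA and 13.2% in WT.

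No single one-strand site passed the test between ΔlaeA and WT. By edgeR's quasi-likelihood test on methylated and unmethylated counts with Benjamini-Hochberg adjustment over all 128387 CG sites listed in all 4 libraries, 0 of 37070 one-strand sites were called, as were 0 of all CG sites (0%; 1 with the replicate block and 1 by Fisher's exact test on reads pooled within strain, neither a one-strand site). At an unadjusted p under 0.05 there were 1211 one-strand sites (3.27%), 771 lower and 440 higher in ΔlaeA, against 4.08% of all CG sites. Both ΔlaeA libraries were below both WT libraries at 18.9% of one-strand sites and above them at 15%, close to 19.2% and 14.8% of all CG sites in the 4 lists. Over the one-strand sites, levels in the ΔlaeA libraries correlated with each other with Pearson's r = 0.599 and the WT libraries with r = 0.636, and between strains r was 0.590 to 0.619 (37070 sites that share libraries and depth, a description). Both-strand sites gave 0.756 to 0.793.

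Summed over 1-kb windows with at least 5 such sites, 3 of 3327 windows of one-strand sites were called by edgeR at an adjusted p under 0.05, 1 lower and 2 higher in ΔlaeA, against 0.486% of the 10291 windows of all CG classes (0.389% lower and 0.0972% higher). At an unadjusted p under 0.05 there were 212, or 6.37% of the windows, against 8.42% of all classes. With the rule applied to the ΔlaeA lists, 8 of 3790 windows were called, 7 lower and 1 higher (70 of 10531 over all classes). With the partner absent from all 4 lists, 3 of 1889 were called, 2 lower and 1 higher (77 of 10578 over all classes). The direction of the few calls thus changed with the rule that chose the sites. The largest differences were next to each other on chromosome 1. In the window from 950001 to 951000, 14 sites had 22.0% and 19.8% in ΔlaeA and 11.9% and 14% in WT, with means of 20.9% ± 1.53 and 12.9% ± 1.49 (SD, n = 2 each) and an edgeR adjusted p of 0.00023. In the window from 951001 to 952000, 6 sites had 27.4% and 24.6% in ΔlaeA and 15.7% and 14.3% in WT (26.0% ± 1.97 and 14.98% ± 0.983; edgeR adjusted p = 0.0016). The strains did not overlap in either window, which lay 5746 and 4746 bp from the nearest gene, MYCTH_2294362. All tests of one-strand sites and windows compare ΔlaeA with the same WT libraries whose lists chose the sites. What this choice adds to the differences and p-values was not tested.

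The called fall was at 2947001 to 2948000 of chromosome 1, 386 bp from gene MYCTH_2295590, where 5 sites had 8.88% and 8.97% in ΔlaeA and 17.0% and 16.7% in WT (8.93% ± 0.0665 and 16.8% ± 0.208; edgeR adjusted p = 0.036). It was called with all 4 libraries and lost its call without any 1 of them (edgeR adjusted p between 0.127 and 0.247), while its difference of -7.89 percentage points stayed between -8.03 and -7.74. The window at 951001 lost its call without ΔlaeA replicate 1 (a difference of 9.60 points against 10.997 with all libraries), and the window at 950001 kept its call in all 9 alternatives. The 9 did not include the rule applied to the ΔlaeA lists or a partner absent from all 4 lists, which change the sites in a window. Under these, the smallest edgeR adjusted p of any 1-kb window of one-strand sites was 0.0115 and 0.0136, against 0.00023 by the WT rule. Leaving out ΔlaeA replicate 1 left 1 called window, and leaving out WT replicate 1 gave 5.

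Longer windows, chosen after seeing the data, gather more reads. At 10 kb, 30 of 1168 one-strand windows passed the threshold (21 with ΔlaeA lower, 9 with ΔlaeA higher), against 4.43% of windows of all CG classes (3.55% lower and 0.88% higher). Of 384 50-kb windows with at least 5 one-strand sites in all 4 lists (a median of 83.5 sites each), 52 were called (13.5%), against 18.6% of the 1170 windows of all CG classes. In 46 of them (11.98%) ΔlaeA was lower and in 6 (1.56%) higher, against 16.7% and 1.97% of all classes. The median size of the called differences was 1.52 percentage points, and over all 384 windows the median difference was -0.456, with 75.3% of windows lower in ΔlaeA. When each library's pooled CG level entered the model as an offset, which removes the library-wide difference, 12 windows were called, 7 lower and 5 higher. Leaving out WT replicate 1 gave 14 calls, WT replicate 2 gave 24, ΔlaeA replicate 1 gave 19 and ΔlaeA replicate 2 gave 31.

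**Figure D5:**
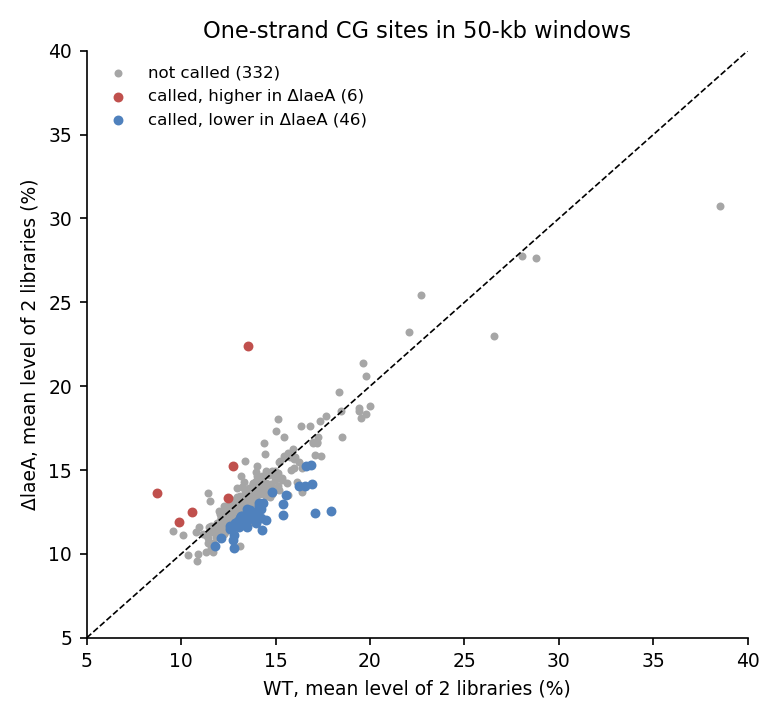
Mean level of one-strand CG sites in 384 50-kb windows, in ΔlaeA (vertical axis, %) against WT (horizontal axis, %); the dashed line marks equal levels. Coloured points were called by edgeR at an adjusted p under 0.05: 46 lower (blue) and 6 higher (red) in ΔlaeA. The red point farthest from the line is the window with 22.4% in ΔlaeA and 13.6% in WT, whose sites all lie in called 1-kb windows next to each other.

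The higher windows lay in a few places. On chromosome 1, the window from 950001 to 1000000 held 20 sites at 23.6% and 21.1% in ΔlaeA and 13.03% and 14.09% in WT (edgeR adjusted p = 3.1e-11). All of these sites lay in the called 1-kb windows at 950001 and 951001, so that this call repeats theirs and covers no more of the chromosome. The neighbouring 50-kb window from 900001 to 950000 held 352 sites at 15.1% and 15.4% in ΔlaeA and 12.9% and 12.5% in WT (15.3% ± 0.233 and 12.7% ± 0.280; SD, n = 2 each; edgeR adjusted p = 6.0e-16), and overlapped a single gene, MYCTH_2122106. On chromosome 7, the window from 650001 to 700000, with no gene in it, held 158 sites at 12.6% and 12.4% in ΔlaeA and 10.5% and 10.7% in WT (edgeR adjusted p = 2.8e-06). These 3 windows kept their call in all 6 alternatives run on them, the offset among them. The window beside the last, from 600001 to 650000, held 51 sites at 12.2% and 11.7% in ΔlaeA and 10.1% and 9.74% in WT (edgeR adjusted p = 0.0054), and lost its call without WT replicate 2 (edgeR adjusted p = 0.0772) or ΔlaeA replicate 1 (0.0998), with differences of 1.85 and 1.76 points against 2.01.

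Among the windows that fell, the one from 1250001 to 1300000 of chromosome 3 held 23 sites at 12.4% and 12.5% in ΔlaeA and 16.4% and 17.8% in WT (edgeR adjusted p = 0.00017). The window from 1150001 to 1200000 of chromosome 5 held 60 sites at 11.6% and 13.1% in ΔlaeA and 15.2% and 15.6% in WT (edgeR adjusted p = 1.7e-05). Both kept their call in all 6 alternatives, and each overlapped 15 genes. The other windows named by size lost calls under alternatives. Those from 6300001 of chromosome 1 (6 sites, -5.36 percentage points), 1200001 of chromosome 3 (28 sites, -2.88), 450001 of chromosome 3 (23 sites, -2.80) and 2650001 of chromosome 4 (5 sites, 4.89) kept their call in 1, 3, 0 and 0 of the 6 alternatives. With each library left out in turn, their differences kept their direction and ran from -6.66 to -4.05, from -3.29 to -2.47, from -3.33 to -2.27 and from 3.64 to 6.14 points.

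At 50 kb, 121 of 408 rows of both-strand sites (29.7%) were called, 110 lower and 11 higher, with a median difference of -0.593 percentage points over all rows. A row of each class was present in 382 windows. Of 51 called one-strand rows with a both-strand row in the window, 34 had that row called in the same direction. In 48 it differed in the same direction, called or not. No such share over all 382 windows stands beside these counts, and lower levels in ΔlaeA were general, with 75.3% of one-strand windows lower. The counts thus do not show a link between the classes. In 81 windows the both-strand sites were called and the one-strand sites were not, and whether the classes differed in a window was not tested. Both classes were read in the same libraries, so that their calls are not independent.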

How the data were processed

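Bisulfite reads of 2 ΔlaeA and 2 WT libraries had been processed by the authors, with Bismark 0.16.3 and FastQC 0.11.5 named in the submitters' processing notes. The genome build is not given in the sources used here, and chromosome names match RefSeq ASM22609v1. For each library the authors deposited read counts (methylated and unmethylated) per called cytosine, the level as a fraction, and a p-value and adjusted p-value. The counts were used, the levels were recomputed from them, and the authors' p-values, none above 0.01 when adjusted, served only to describe the lists. The authors' table of differentially methylated regions, which holds mean levels and differences of their own comparison, was not used. No per-sample column was left unmapped.

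Strains and replicate numbers came from the sample titles. One-strand sites were found by position, without a genome sequence. For sites and windows the test was edgeR's (version 4.0.16, R 4.3.3; quasi-likelihood F, 1 coefficient per library, methylation, and methylation by strain, a common dispersion, adjusted p under 0.05), over all CG classes at once. Library values were compared with an exact permutation test. Tables were made with Python 3.11.15 and pandas 2.3.3. The scripts were tested on simulated data. Intervals cover counting error only.

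The one-strand sites, the windows and the lists of genes were chosen with earlier results of these data known. Named sites were the 5 strongest in ΔlaeA with the partner absent from all 4 lists and the 5 strongest partners listed in both ΔlaeA libraries, 1 per kb with at least 20 reads. Named windows were the 5 largest called falls and rises with strains apart, and named genes the 5 with most sites and 11 chosen from those the study worked on. The titles do not say whether the replicate numbers pair the samples. Deviations of same-numbered libraries correlated with r = 0.0049 over 10291 windows. A shift shared by whole libraries would not show in this value, so that it does not settle the pairing. Alternatives tried were read minima of 10 and 20, mean site levels, the rule applied to the ΔlaeA lists, a partner absent from all 4 lists, a library offset, a replicate block, Fisher's exact test, site minima of 3 and 10, window length and leaving out each library.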

Additional observations from a re-analysis of the deposited data

How the results depend on the processing

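Read minima of 10 and 20 left the number of one-strand sites, the shares listed again, the level difference, the calls of single sites and 1-kb windows and the 3 named 1-kb windows with their direction and side of the threshold, and were not run on longer windows. The number of one-strand sites was 119836 to 119863 when the rule read a single WT list, against 60825 with both, so that the number rests on asking for both lists. With the rule applied to the ΔlaeA lists and followed in WT, the cytosine was listed again at 80.9% of sites and the partner at 17.3%. The level difference stayed negative in all 9 alternatives. No alternative called a single one-strand site. For 1-kb windows, where 3 were called, the replicate block gave 5, Fisher's exact test 5, at least 10 sites per window 1, the rule applied to the ΔlaeA lists 8, and leaving out 1 library 1 to 5. For single sites the replicate block gave 0. Window lengths added after seeing the data gave 30 calls at 10 kb and 52 at 50 kb, with 43 at 50 kb by the ΔlaeA rule. At 50 kb, a partner absent from all 4 lists gave 33 calls, the library offset 12, the replicate block 35, and leaving out 1 library 14 to 31. Why calls changed under the block and the offset was not tested. A library left alone in its strain was assumed to vary like the others. Of the tests on the 3 named 1-kb windows under alternatives, 22 kept the call and 5 lost it, and of those on the 10 named 50-kb windows 38 kept it and 22 lost it, with no change of direction. Depth limits what an absent partner means, since 3 methylated reads were needed at 30 to 60 reads.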
